A study of Arabidopsis thaliana with 6 samples.

Results

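The mRNAs of *rpoA*, *rpoB*, *rpoC1* and *rpoC2*, which encode the core of the plastid-encoded RNA polymerase, were followed in RNA co-immunoprecipitation with the chloroplast RNA binding protein CP31A, in the digestion-optimized form known as DO-RIP-Seq. They were chosen by gene name, and all 4 were present among the 73 RNAs measured. Wild-type Columbia-0 seedlings of *Arabidopsis thaliana*, 14 days old and kept at 21 °C in long days, were frozen and ground, and their extract was cross-linked with formaldehyde. RNA fragments left by nuclease treatment were sequenced from the mix of extract and antibody-coated beads (input, no antibody selection) and from the washed anti-CP31A precipitate (pellet). Input and pellet had 3 libraries each, numbered by biological replicate, and each pellet was compared with the input of its own mix. No mutant is part of these libraries. Precipitates with non-specific immunoglobulins were not analysed here, so the values measure pellet against input and not against a mock precipitate. Whole seedlings mix many cell types, and the number of cells of a type cannot be told apart from the amount of RNA per cell. The table holds chloroplast genes only, so the labelled tissue was not checked against nuclear marker genes.

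Chloroplast genes are read by a bacterial-type polymerase, whose core is encoded in the plastid genome and which needs nuclear-encoded sigma factors, and by a phage-type polymerase encoded in the nucleus. The bacterial-type core has an alpha subunit for assembly (*rpoA*), a beta subunit (*rpoB*) and a beta prime subunit that is split in plastids into the products of *rpoC1* and *rpoC2*. *rpoB*, *rpoC1* and *rpoC2* form an operon that the nuclear-encoded polymerase transcribes, and the plastid-encoded polymerase in turn transcribes the photosynthesis genes, so plants without it are pale. CP31A belongs to the chloroplast ribonucleoproteins, which bind many chloroplast mRNAs and are known for stabilizing them and for supporting RNA editing.

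In RefSeq's chloroplast genome (154478 bp, build TAIR10.1), all 4 genes lie on the minus strand. *rpoB* (ArthCp014) runs from 23111 to 26329, *rpoC1* (ArthCp013) from 20251 to 23084 and *rpoC2* (ArthCp012) from 15938 to 20068. *rpoA* (ArthCp055) stands alone from these at 77901 to 78890, as the last gene of a cluster that otherwise encodes ribosomal proteins. Only *rpoC1* has an intron, from 21862 to 22652, and its 791 bases are 26.1% of the window in which its reads were counted. The beginning of each coding sequence is given here to identify the 4 mRNAs, with the start codon in capitals.
rpoB, 26270 to 26329: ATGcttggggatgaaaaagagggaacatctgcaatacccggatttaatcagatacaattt
rpoC1, 23025 to 23084: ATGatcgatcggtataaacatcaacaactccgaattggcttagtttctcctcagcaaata
rpoC2, 20009 to 20068: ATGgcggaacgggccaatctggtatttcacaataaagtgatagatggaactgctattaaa
rpoA, 78831 to 78890: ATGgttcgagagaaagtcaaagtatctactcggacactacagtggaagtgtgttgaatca

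Reads were counted over each gene with 100 nt on each side, so that neighbours on the same strand can share fragments. The spacer between *rpoB* and *rpoC1* is 26 bases long, and their windows overlap by 174 bases (5.09% of the *rpoB* window). The stretch from 23055 to 23140, read on the minus strand, shows how closely the genes follow each other, with the stop codon of *rpoB* and the start codon of *rpoC1* in capitals.
rpoB to rpoC1: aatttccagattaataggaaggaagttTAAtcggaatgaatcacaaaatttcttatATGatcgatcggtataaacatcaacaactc
The windows of *rpoC1* and *rpoC2* share 18 bases across a spacer of 182 bases. Of the *rpoA* window, 11.0% is likewise shared with another window. How a fragment in a shared stretch was assigned is not given in the sources used here. The active site of the enzyme lies in the product of *rpoC1*, where aspartates bind the catalytic magnesium. Its codons, numbers 487 to 493 of the coding sequence, stand in capitals within the stretch from 20794 to 20856 on the minus strand.
rpoC1 active site: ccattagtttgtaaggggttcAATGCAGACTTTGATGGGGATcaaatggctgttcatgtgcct
The counting window of *rpoA* had a GC content of 32.5%, against 38.4% for *rpoB*, 36.4% for *rpoC1* and 36.5% for *rpoC2*. Over the windows of all 73 RNAs the median was 33.9%, with a range of 25.9% to 42.8%. U made up 28.9% of the *rpoA* window, 29.6% of that of *rpoB*, 31.1% for *rpoC1* and 30.8% for *rpoC2*, all below the median of 32.9%.

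The *rpo* mRNAs were rare in both fractions. Their summed level, in TPM (reads per window length, scaled to a fixed total per library), came to 1431, 1858 and 1835 for inputs 1 to 3 and to 3412, 3453 and 3377 for pellets 1 to 3. Of all TPM this was 0.145% to 0.188% per input and 0.347% to 0.355% per pellet, so that the 4 mRNAs together held a larger share in each of the 3 pellets than in any input. Reads worked out from TPM and window length numbered 82, 305 and 347 over the 4 mRNAs for inputs 1 to 3 and 2121, 2837 and 3323 for pellets 1 to 3. Over all 73 RNAs inputs 1 to 3 held 24225, 67822 and 73526 reads, and a pellet held 251570 to 392286. Input 1 was the shallowest library, with 24 RNAs under 20 reads, against 6 in input 2 and 3 in input 3. The inputs therefore set the precision. Duplicates had been removed by molecular identifiers, and the counting intervals given for single pairs cover counting error only, unlike the intervals of limma.

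On the TPM scale CP31A pellets held more of all 4 mRNAs than the inputs, and the rise passed the test for 3 of them. However, with the median of each library put at 0 none of the 4 passed and the value of *rpoB* became -0.059. *rpoA* rose 2.75-fold, *rpoC2* 2.02-fold and *rpoC1* 1.87-fold, while *rpoB*, with a mean of 1.71-fold, did not pass the test. Enrichment is the log2 of pellet TPM over input TPM within a replicate (pair), averaged over 3 pairs. It was tested two-sided by limma, which carried the replicate as a block, and p-values were adjusted over 73 RNAs (Benjamini-Hochberg). At an adjusted p under 0.05, 49.3% of all 73 RNAs were higher in the pellet, and 34.2% were so with an enrichment of at least 2-fold (targets), against 3 and 2 of the 4 *rpo* mRNAs. TPM in all 3 pellets was above that in all 3 inputs for each of the 4, and for 63% of all RNAs. The counts of the 4 members were not tested against these shares, and nothing particular to the *rpo* mRNAs is read from them.

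The level of *rpoC1* was the highest of the 4 in every library. Inputs 1 to 3 held 616, 752 and 717 TPM, and pellets 1 to 3 held 1317, 1292 and 1285 TPM. The pellets lay close together and far above all inputs, with an input mean of 695 ± 70.6 TPM and a pellet mean of 1298 ± 16.9 TPM (SD, n = 3 libraries). Pairs 1 to 3 had log2 enrichments of 1.10, 0.78 and 0.84, with a mean of 0.91 ± 0.17 (SD, n = 3 pairs) and an adjusted p of 0.00762 by limma. It rested on 39, 131 and 135 reads of inputs 1 to 3. The call was lost without replicate 2 (0.97, adjusted p = 0.0546 by limma) or replicate 3 (0.94, adjusted p = 0.0997 by limma). In these fits all RNAs shared a standard error, and the mean of *rpoC1* was not lower than over 3 pairs.

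*rpoC2* had the lowest level of the 4 in every library, and ranked 69 to 72 of 73 RNAs. Inputs 1 to 3 held 188, 213 and 245 TPM, and pellets 1 to 3 held 416, 422 and 462 TPM. Again no pellet reached down to an input, and the means were 216 ± 28.8 TPM (input) and 433 ± 24.9 TPM (pellet; SD, n = 3 libraries). With 1.15, 0.98 and 0.91 for pairs 1 to 3, the mean log2 enrichment was 1.01 ± 0.12 (SD, n = 3 pairs), and limma gave an adjusted p of 0.00548. The inputs held 17, 53 and 66 reads of it. The call was lost without replicate 3 (1.07, adjusted p = 0.0609 by limma, from a standard error that all RNAs then shared). Without replicate 1 the value fell short of 2-fold (0.95). The 2-fold line separates *rpoC2* from *rpoC1* by a small margin, and the 95% intervals of limma, 0.51 to 1.51 for *rpoC2* and 0.40 to 1.41 for *rpoC1*, overlap almost entirely.

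*rpoB*, the first gene of the operon, was uneven in the inputs and even in the pellets. Inputs 1 to 3 held 224, 469 and 589 TPM, and pellets 1 to 3 held 727, 652 and 649 TPM. The means were 427 ± 186 TPM (input) and 676 ± 44.4 TPM (pellet; SD, n = 3 libraries), and all pellets were above all inputs. Input 1 stood apart, at -1.23 on the log2 scale against the mean of inputs 2 and 3, the sixth lowest such value of 73 RNAs, whose median was 0.17. This library also differed most over all RNAs. Its reads differed from those of inputs 2 and 3 by 47.1 and 26.2 (chi-square per degree of freedom), against 12.5 between inputs 2 and 3. Pairs 1 to 3 gave log2 enrichments of 1.70, 0.48 and 0.14, and their mean of 0.77 ± 0.82 (SD, n = 3 pairs) did not pass, with an adjusted p of 0.0686 by limma. Input 1 held 16 reads of *rpoB*, against 92 and 125 in inputs 2 and 3. The 95% counting interval of the pair of replicate 1, 0.98 to 2.41, lay above those of replicate 2 (0.16 to 0.79) and replicate 3 (-0.13 to 0.41). The gap between the pairs is thus wider than counting error gives, and its cause was not tested. Without replicate 1 the mean log2 enrichment was 0.31, at rank 58 of 73 RNAs in place of 35, and the value passed (adjusted p = 0.0330 by limma, from a standard error that all RNAs then shared).

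*rpoA* had the highest enrichment of the 4. Inputs 1 to 3 held 403, 424 and 284 TPM, and pellets 1 to 3 held 951, 1087 and 981 TPM. Even the lowest pellet was well above the highest input, and the means were 370.5 ± 75.4 TPM (input) and 1007 ± 71.4 TPM (pellet; SD, n = 3 libraries). With 1.24, 1.36 and 1.79 for pairs 1 to 3, the log2 enrichment averaged 1.46 ± 0.29 (SD, n = 3 pairs; limma, adjusted p = 0.00253). It was also the member with the fewest reads, with 10, 29 and 21 for inputs 1 to 3 and 255, 396 and 418 for pellets 1 to 3. The 95% counting intervals of the pairs were accordingly wide, at 0.33 to 2.15, 0.81 to 1.90 and 1.16 to 2.42, and all overlap.

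**Figure D1:**
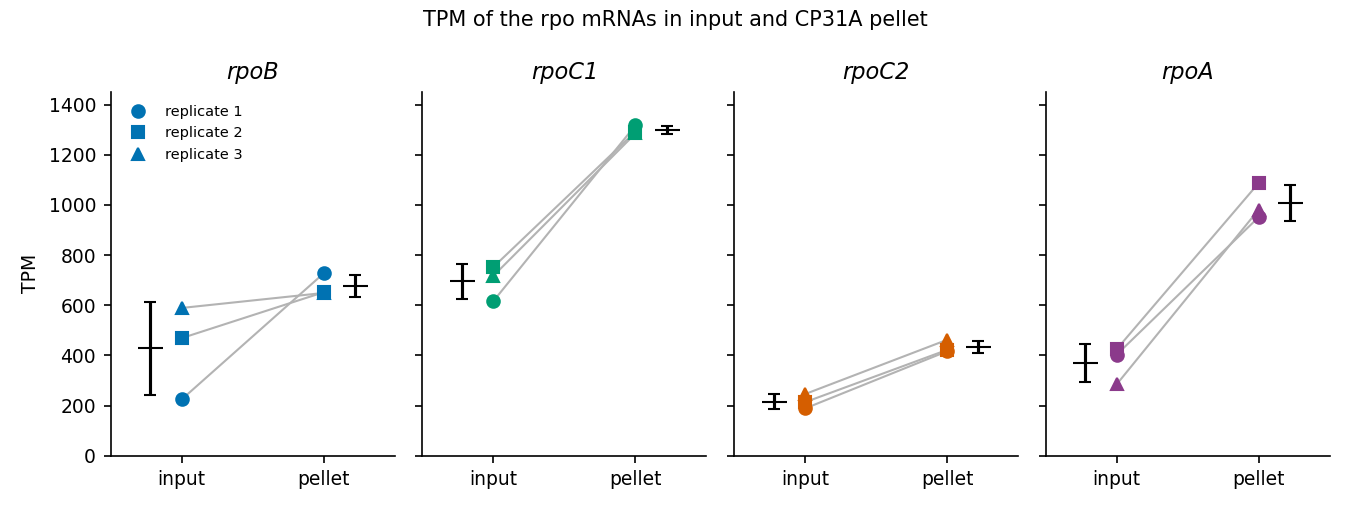
TPM (linear axis from 0) of each *rpo* mRNA in the 3 inputs and 3 pellets, with a symbol for each replicate, grey lines joining the input and pellet of a pair, and bars for the mean and SD over 3 libraries. All pellets of each mRNA lie above all its inputs, and the inputs of *rpoB* are spread from 224 to 589 while its pellets lie between 649 and 727.

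Each library's values are shares of a fixed total, and the most abundant RNAs weigh heavily in it. By mean input TPM these were *psbA*, *rbcL* and *psbC*. On the TPM scale the median log2 enrichment over all 73 RNAs was 0.71, and the *rpo* mRNAs lay above it by 0.75 for *rpoA*, 0.30 for *rpoC2*, 0.19 for *rpoC1* and 0.058 for *rpoB*. Setting each library's median to 0 gave log2 enrichments of 0.63 for *rpoA*, 0.18 for *rpoC2*, 0.076 for *rpoC1* and -0.059 for *rpoB*, and none of the 4 passed (adjusted p = 0.0733 for *rpoA* from limma). On that scale 4 of all 73 RNAs were higher in the pellet and 9 lower. Rescaled without the 3 RNAs most abundant in the input, only *rpoA* of the 4 passed, at 0.98 (adjusted p = 0.0424 from limma). The direction against the input thus depends on the scale for *rpoB*, and the calls of *rpoA*, *rpoC1* and *rpoC2* depend on it too.

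Ranks within a pair do not depend on the scale of a library. *rpoA* ranked 22, 10 and 4 of 73 RNAs by enrichment in pairs 1 to 3. *rpoC2* ranked 24, 24 and 30, and *rpoC1* 28, 33 and 33, both above the median each time. *rpoB* stood at rank 15 in pair 1 and at ranks 49 and 61 in pairs 2 and 3.

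**Figure D2:**
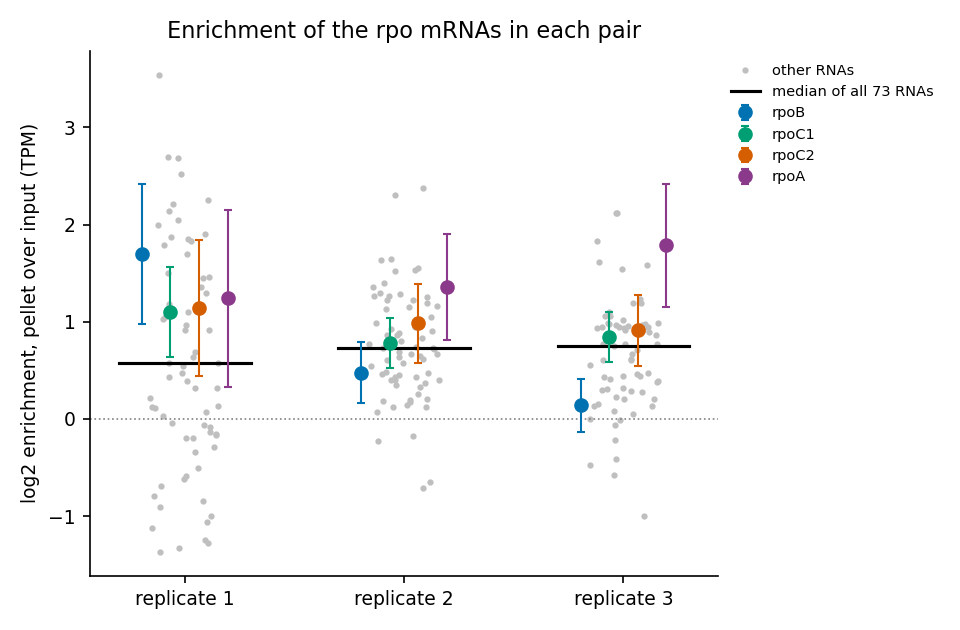
Log2 enrichment of pellet over input (TPM scale) in the pair of each replicate, for the 4 *rpo* mRNAs with 95% counting intervals, the other RNAs as grey points and the median of all 73 RNAs as a black line. *rpoA*, *rpoC1* and *rpoC2* lie above the median in each pair, and *rpoB* lies above it in pair 1 and below it in the others.

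Between input replicates *rpoB* was more uneven than the other members of its operon. Over the 3 inputs the SD of log2 TPM was 0.73 for *rpoB*, 0.15 for *rpoC1*, 0.19 for *rpoC2* and 0.31 for *rpoA*, against a median of 0.41 over all RNAs. Among pellets it was 0.093 for *rpoB*, 0.019 for *rpoC1*, 0.082 for *rpoC2* and 0.10 for *rpoA*, against a median of 0.095. The SD of *rpoB* ranked 11 of 73 from the widest over the inputs and 39 over the pellets, and that of *rpoC1* ranked 66 and 71. These ranks are a description, since each rests on 3 libraries.

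Since TPM is per length, the members can be set against each other within a library, as levels of fragments left by the nuclease. How well an mRNA was protected cannot be told apart from its amount, in input or pellet. The TPM of *rpoC1* was 3.27, 3.53 and 2.92 times that of *rpoC2* for inputs 1 to 3 and 3.16, 3.06 and 2.78 times for pellets 1 to 3. The means, 3.24 ± 0.31 (input) and 3.00 ± 0.20 (pellet; SD, n = 3 libraries), lie close together. The ratio was lower in the pellet than in the input of the same replicate in 3 of 3 pairs, by a mean within counting error. The ratio of *rpoC1* to *rpoB* was less even, at 2.75, 1.60 and 1.22 for inputs 1 to 3 and 1.81, 1.98 and 1.98 for pellets 1 to 3. *rpoA* was 1.80, 0.91 and 0.48 times *rpoB* for inputs 1 to 3 and 1.31, 1.67 and 1.51 times for pellets 1 to 3. The order in all 3 pellets was *rpoC1*, *rpoA*, *rpoB* and *rpoC2*. Inputs 2 and 3 had *rpoB* above *rpoA*, and input 1 the reverse, so these neighbours in the order do not differ beyond their spread in the input. The window of *rpoC1* includes its intron, and the share of its reads in the intron was not analysed here.

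**Figure D3:**
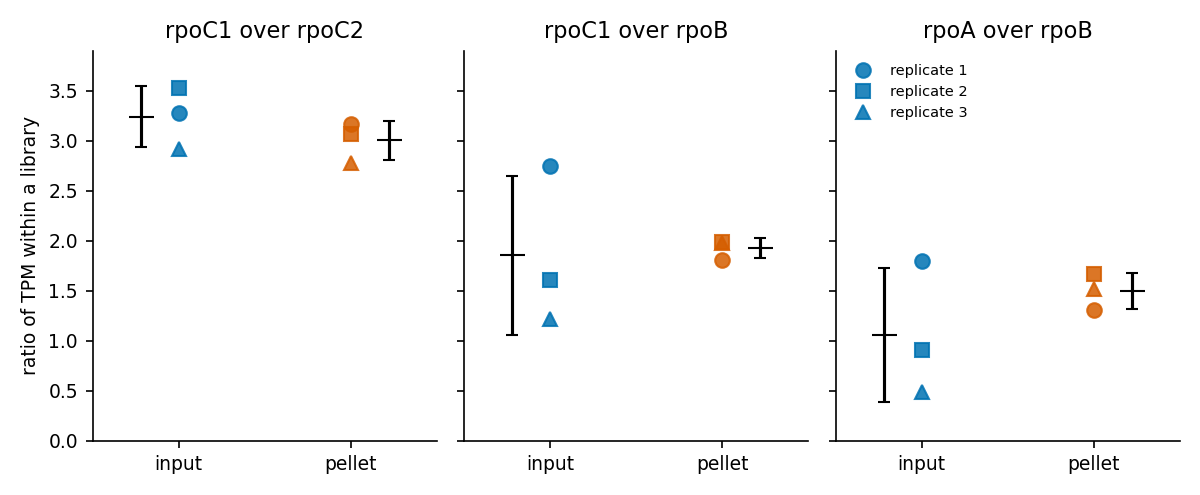
Ratio of TPM between members within each library (linear axis from 0), for 3 inputs (blue) and 3 pellets (orange), with bars for the mean and SD. The ratio of *rpoC1* to *rpoC2* stays between 2.78 and 3.53 in all 6 libraries, while the ratios that involve *rpoB* are spread in the inputs and narrow in the pellets.

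Differences in enrichment between members were taken within each pair, which removes the scale of the libraries. An exact sign-flip test over 3 pairs cannot give a two-sided p under 0.25, so no difference could pass. *rpoC1* minus *rpoC2* was -0.11 ± 0.084 on the log2 scale (SD, n = 3 pairs), the same way in 3 of 3 pairs, but 0.058 once a pseudocount of 100 TPM was added. Counting error alone gave this mean a standard error of 0.18, so it lies within counting error. *rpoA* lay above *rpoC1* by 0.56 ± 0.40 and above *rpoC2* by 0.45 ± 0.40 (SD, n = 3 pairs), each in 3 of 3 pairs. From counting error alone these means had standard errors of 0.23 and 0.26. The 95% intervals of limma, 0.93 to 1.99 for *rpoA* and 0.51 to 1.51 for *rpoC2*, overlap. For these 3 differences the exact sign-flip p was 0.25, and 0.667 after Benjamini-Hochberg adjustment over 8 differences. The difference of *rpoB* and *rpoC1* was -0.14 ± 0.67, with 0.60, -0.31 and -0.70 for pairs 1 to 3. *rpoA* minus *rpoB* was 0.69 ± 1.07, negative in pair 1 (-0.46) and positive in the others (0.88 and 1.65). Both are smaller than their spread between pairs.

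Downstream of *rpoC2* on the same strand, after a spacer of 214 bases, come *rps2* (a protein of the small ribosomal subunit) and *atpI*, *atpH*, *atpF* and *atpA* (subunits of the ATP synthase). Of these 5 mRNAs, 2 were higher in the pellet and 3 did not pass, against 49.3% higher over all RNAs, and their median log2 enrichment of 0.71 is that of all RNAs. *rps2* had 0.54, 1.27 and 1.55 for pairs 1 to 3 and a mean of 1.12 ± 0.52 (SD, n = 3 pairs), with an adjusted p of 0.00726 by limma. *rpoC2* minus *rps2* was -0.10 ± 0.64 (SD, n = 3 pairs), with opposite signs in different pairs. *atpI* passed as well (1.24 ± 0.90), and *atpH* had the lowest value of the strand, -0.33 ± 0.87 (SD, n = 3 pairs), which did not pass. The direction of *atpF*, *atpA* and *atpH* differed between pairs. In pair 1, *rpoB* and *atpI* were high while *atpH*, *atpF* and *atpA* were below 0.

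*rpoA* ends a cluster of genes for proteins of the large (*rpl*) and small (*rps*) ribosomal subunits, of which *rpl2*, *rpl22*, *rps3*, *rpl16* and *rpl14* are described here. *rps3* was higher in the pellet, with 0.58, 0.93 and 0.93 for pairs 1 to 3 and a mean of 0.81 ± 0.20 (SD, n = 3 pairs), and an adjusted p of 0.0134 by limma. *rpl2*, *rpl22*, *rpl16* and *rpl14* had means of -0.10, -0.15, -0.023 and 0.0028 and did not pass, with values below 0 in pair 1 and above 0 in the others. The log2 enrichment of *rpoA* was above that of each of these 5 mRNAs in 3 of 3 pairs.

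**Figure D4:**
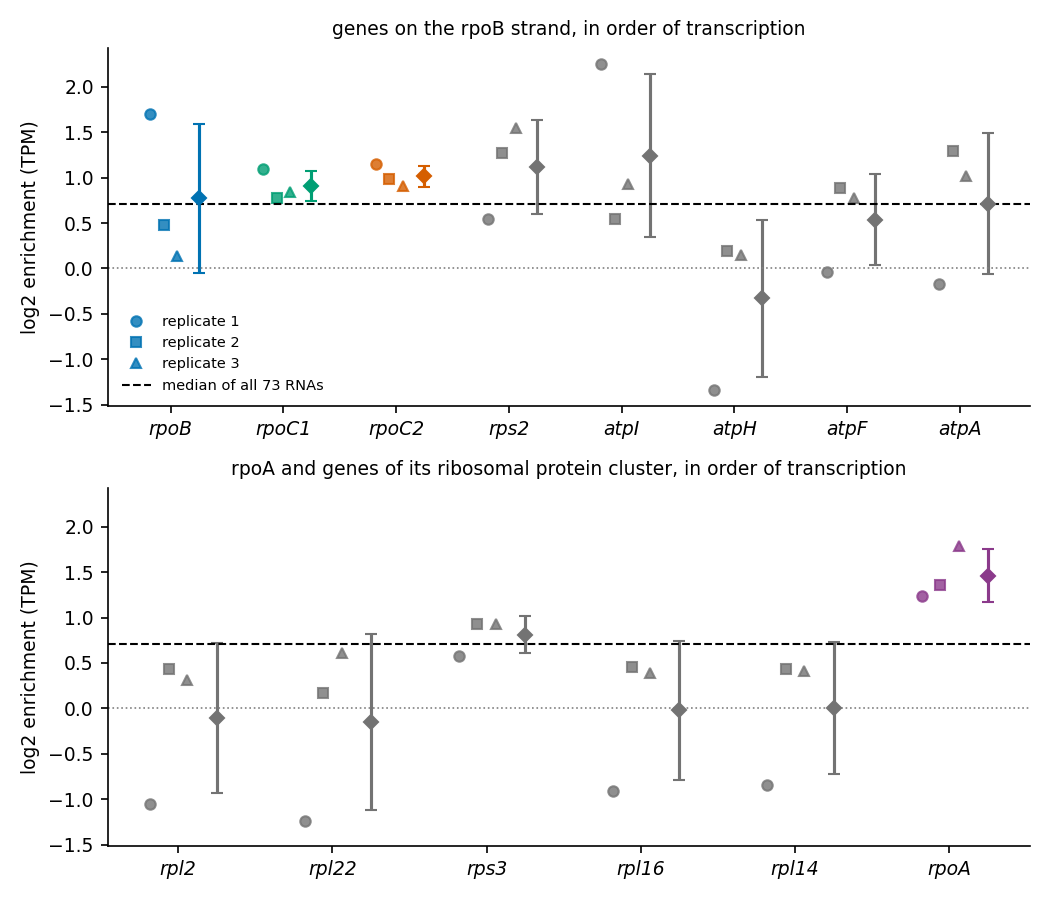
Log2 enrichment (TPM scale) of the genes that follow *rpoB* on its strand (top) and of 5 genes of the cluster that ends with *rpoA* and *rpoA* itself (bottom), in 5′ to 3′ order, with a symbol for each replicate, diamonds and bars for the mean and SD over 3 pairs, and a dashed line for the median of all 73 RNAs (0.71). *rpoC1* and *rpoC2* have narrow spreads, *rpoA* has the highest mean of the lower panel, while the mean of *rpoB* (0.77) becomes -0.059 when each library's median is put at 0.

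Over the gene expression machinery of the plastid apart from the polymerase (the measured *rpl* and *rps* mRNAs and *matK*, for a maturase of group II introns), 7 of 18 mRNAs were higher in the pellet and 11 did not pass, with a median log2 enrichment of 0.30, against 49.3% higher and a median of 0.71 over all 73 RNAs. *matK* (1.14) and *rps2* (1.12) had the highest means, and *rps18* (-0.24) and *rpl22* (-0.15) the lowest, of which *matK* and *rps2* passed. Of 19 mRNAs for the photosystems and the large subunit of Rubisco, which the plastid-encoded polymerase is known to transcribe, 6 were higher in the pellet and 13 did not pass, with a median of 0.38, to be read against the same 49.3% and 0.71. *psbM* (1.43) and *psaI* (1.31), for small photosystem subunits, were highest and passed, and *rbcL* and *psbA* (both -0.43) were lowest and did not pass. The median of the 4 *rpo* mRNAs was 0.96.

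The enrichments of *rpoC1* in the 3 pairs were closest to those of *ycf2*, with a root-mean-square distance of 0.049 on the log2 scale, then *petL* (0.067), for a small subunit of the cytochrome *b6f* complex, and *rpoC2* (0.13). *ycf2* (1.05, 0.83 and 0.90 for pairs 1 to 3) was also the closest to *rpoC2*, at 0.10, and *rpoC1* lay at 0.13. The pattern of *rpoA* was most like those of *ndhK* (0.17) and *ndhA* (0.30), for subunits of the NDH complex, and of *rps2* (0.43). *rpoB* had no such close match, the nearest being *ycf4* (0.39), for photosystem I assembly, *petG* (0.45) and *psbZ* (0.47), while *rpoC1*, its neighbour in the operon, came 11th (0.56). These distances describe 3 pairs and were not tested.

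**Figure D5:**
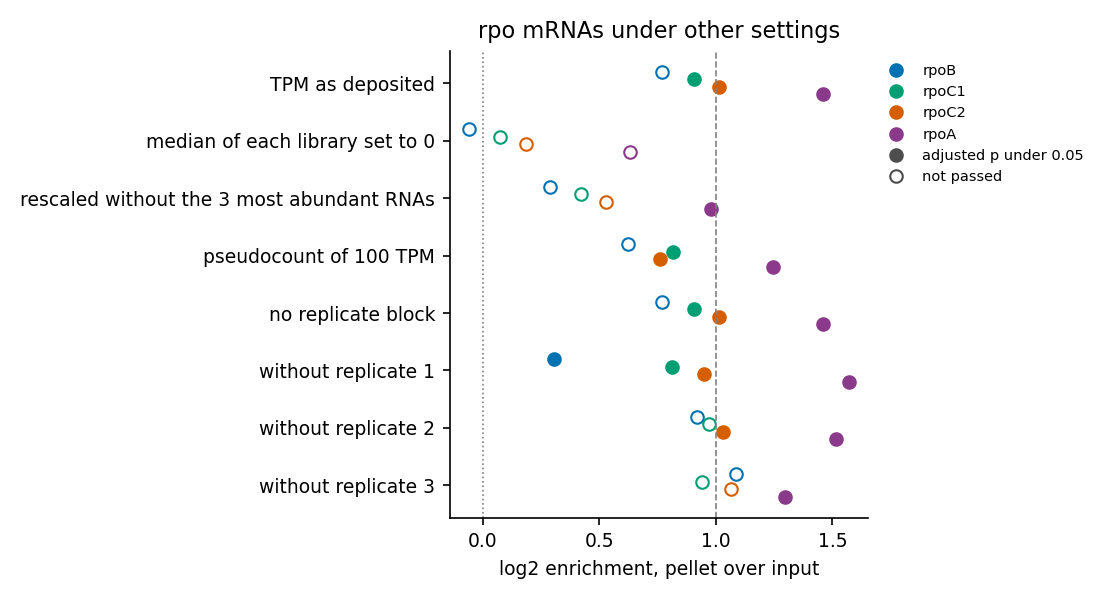
Mean log2 enrichment of the *rpo* mRNAs under other scalings, with a pseudocount, without the replicate block and without each replicate, where filled points passed (adjusted p under 0.05 from limma) and open points did not, and lines mark 0 and 1. *rpoA* has the highest value in every setting shown and passes in all but that with each library's median put at 0, where *rpoB* is at -0.059.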

How the data were processed

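DO-RIP-Seq libraries of 3 inputs and 3 CP31A pellets were analysed. Per the methods and the submitters' notes, the authors used Trim Galore 0.6.4 for trimming (reads of 40 to 60 bases kept), STAR 2.5.3 for alignment to TAIR10 and UMI-tools 0.5.4 to remove duplicates, and counted the coding strand of each chloroplast gene, introns and 100 nt flanks included, with featureCounts. Genes under 5 reads in any library were left out. The deposited table gives TPM and log2 TPM per library for 77 entries. The authors' mean enrichment and p-value columns (2) were not used.

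Inverted-repeat copies were averaged to give 73 RNAs. Reads were worked out as TPM times window length times a factor per library, the smallest that made at least 90% of values whole (tolerance 0.0001). This held for 75 of 77 entries in every library, and *psbC* and *rps12* were given fitted windows of 1586 and 995 nt. Such reads are the smallest numbers that match. Within a condition, libraries differed by 12.5 to 47.1 (chi-square per degree of freedom), so none was a repeat.

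Log2 TPM without a pseudocount was fitted with limma 3.58.1 in R 4.3.3, two-sided, as pellet against input plus a block for each replicate, with Benjamini-Hochberg adjustment. The test was checked on simulated data with the same spread for every RNA and both fractions, and with changes larger than those of the *rpo* mRNAs. In the measured data the median SD of log2 TPM was 0.41 over inputs and 0.095 over pellets. The check therefore does not cover this unequal spread, smaller changes or the choice of scale. The pairing comes from the methods, as each input was taken from the mix of its pellet, and deviations from the group means correlated within numbers at 0.17, 0.30 and -0.03 across RNAs. The p-values measure the spread between these libraries, with the variance of each RNA drawn by limma towards that of all RNAs. They therefore do not follow the SD over 3 pairs alone. The standard error by limma was 0.22 for *rpoC2* and 0.32 for *rpoB*, against 0.069 and 0.47 from their own pairs. Other scalings, a pseudocount of 100 TPM, filters of 500 TPM and 20 reads, the fit without the block or with copies kept apart, the methods' one-sided paired test and leaving out each replicate were tried. Named genes are the *rpo* genes, their neighbours, the 3 RNAs nearest to each in the 3 enrichments, and the extremes of each list. Some of these genes are not reported here. *psbC* falls outside this rule and was named after its values were seen. Members and lists were chosen with earlier results of these data known. Scripts ran in Python 3.11.15 (matplotlib 3.10.9, scipy 1.17.1, pandas 2.3.3, numpy 2.4.6).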

Additional observations from a re-analysis of the deposited data

How the results depend on the processing

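On the TPM scale 37 RNAs were called (36 higher, 1 lower), 25 of them targets, and 3 and 2 of the *rpo* mRNAs were. Setting each library's median to 0, 13 RNAs were called (4 higher, 9 lower) with 3 targets and 0 *rpo* mRNAs; *rpoA* was at 0.63, *rpoC2* at 0.18, *rpoC1* at 0.076 and *rpoB* reversed to -0.059. Rescaled without the 3 RNAs most abundant in the input, 8 were called (5 higher, 3 lower) with 3 targets, and 1 *rpo* mRNA was called with 0 targets, *rpoC1* (0.42) and *rpoC2* (0.53) no longer passing. A pseudocount of 100 TPM left 1 *rpo* target, and *rpoC1* minus *rpoC2* moved from -0.11 to 0.058. The filter of 500 TPM kept only *rpoC1* of the *rpo* mRNAs, and so did that of 20 reads, with 19 RNAs called and 12 targets; each thus had 1 *rpo* call and 0 *rpo* targets. The methods' paired test gave 42 calls and 24 targets without adjustment, as the methods describe it. After adjustment over 73 RNAs it gave 20 calls and 12 targets. The same 3 *rpo* mRNAs were called either way. Without the replicate block no *rpo* call changed, and *rpoB* again did not pass (adjusted p = 0.0911 from limma). Keeping inverted-repeat copies apart changed no *rpo* call either.

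With a replicate left out, log2 enrichments ran from 1.30 to 1.57 for *rpoA*, from 0.31 to 1.09 for *rpoB*, from 0.81 to 0.97 for *rpoC1* and from 0.95 to 1.07 for *rpoC2*, with 21 to 62 RNAs called, 21 to 26 targets, 1 to 4 *rpo* calls and 1 to 2 *rpo* targets. *rpoB* passed only without replicate 1 (0.31), *rpoC1* failed without replicate 2 or 3 and *rpoC2* without replicate 3. All RNAs then shared a standard error (0.14, 0.41 or 0.45), so these calls rest on the size of the mean and not on how alike the pairs were. Depth limits *rpoA* most, with 10 reads in input 1.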
